A study of Mus musculus with 232 samples.

Results

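The 40 genes described here are listed genes of mitosis and the kinetochore, and they were picked by name, with earlier results of these data known. All 40 were found by symbol among the 42493 genes of the files, and all 40 had a mean of at least 5 reads per cell, as did 11186 genes in all. They were read in 182 single mouse embryonic stem cells grown with serum, LIF and the 2i inhibitors PD0325901 and CHIR99021, and captured 24 hours after transfection. Of these cells, 16 were wild type (the line V6.5), 60 were mock-transfected Dgcr8-/- cells, 58 were Dgcr8-/- cells given a mimic of miR-294 (3 of them titled MIR_294 and not miRNA294) and 48 were Dgcr8-/- cells given a let-7 mimic. Dgcr8 is needed to make most miRNAs, so the 3 Dgcr8-/- groups lack most endogenous miRNAs. Each mimic adds a single miRNA, and the study states that embryonic stem cells do not express the let-7 family. The design text has wild-type cells mock transfected as well. The let-7 mimic is named let-7i in the sample titles, let-7b in the design text and let-7c in the methods of the study. Each condition was captured on 1 chip, and the labels name no separate cultures, so a condition is 1 sample here, the chip and the condition cannot be told apart, and no test between conditions was made. The study had also left out mimic-treated cells in which targets of the mimic were not seen to go down.

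Mitosis is driven by the kinase Cdk1 with its cyclins, whose RNAs build up through G2 and fall again after division. The kinetochore is the protein structure that joins each centromere to spindle microtubules, and the spindle checkpoint holds back anaphase until every kinetochore is attached. Most of these genes share a transcription programme that peaks in G2 and mitosis, read from promoters that carry a cell cycle homology region (TTTGAA or TTTAAA) below one or more CCAAT boxes bound by the factor NF-Y. Mouse embryonic stem cells divide fast and spend little time in G1. miR-294 belongs to a miRNA family that promotes their G1-to-S passage, while let-7 is a miRNA of differentiating cells.

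The mature miRNAs are shown because their seeds set which letters are looked for in these genes, and they come from RefSeq (GRCm38.p6), with the seed (bases 2 to 8) in capitals.
mmu-miR-294-3p: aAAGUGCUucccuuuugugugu
mmu-let-7i-5p: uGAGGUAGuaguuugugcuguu
mmu-let-7b-5p: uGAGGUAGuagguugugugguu
mmu-let-7c-5p: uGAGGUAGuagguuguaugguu
The 3 let-7 sequences have 1 seed in common. Counted from the 5′ end, let-7i and let-7b differ at 3 bases (U12G, C18U and U19G), and let-7b and let-7c differ at 1 base (G17A).

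The 7 letters that pair with the miR-294 seed (AGCACTT) were found in the longest annotated 3′ UTR of 4 of the 40 genes, against 18.2% of 10304 expressed genes with a 3′ UTR. The letters that pair with the let-7 seed (CTACCTC) were also found in 4 of the 40, against 10.6% of the expressed genes. The 3′ UTRs of the mitotic genes were shorter, with a median of 634 bases against 1199. A match is only a description of the letters. The sites with miR-294 letters are shown because Cdc25b, Plk4 and Ect2 are on the study's miR-294 target list, which came from bulk cell populations, and each is given with 25 bases of the transcript 5′ to 3′ (GRCm38, GENCODE M21), the pairing letters in capitals.
Cdc25b (chr2:131198068-131198092, plus strand): cctcgctggtcAGCACTTgctgctg
Plk4 (chr3:40816803-40816827, plus strand): tttatttttatAGCACTTgtgtctg
Ect2 (chr3:27098324-27098348, minus strand): tactttgaattAGCACTTggtaaag
Mad2l1 (chr6:66545769-66545793, plus strand): cacatagtggaAGCACTTcatagta
The sites with let-7 letters follow, where Ccnf is on the study's bulk list of let-7 targets.
Ccnf (chr17:24222577-24222601, minus strand): gacagtaatgcCTACCTCacaggaa
Birc5 (chr11:117855459-117855483, plus strand): ctttaaagtggCTACCTCtctttgg
Kif11 (chr19:37420734-37420758, plus strand): aggctgtttccCTACCTCtaaccag
Nusap1 (chr2:119649947-119649971, plus strand): tcccccagcctCTACCTCccaggtg
Of these 8 sites, the site in Ccnf was the one followed by an A, the base that faces the first base of a miRNA.

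Promoters of 300 bases (250 before to 50 after the start, RefSeq, GRCm38.p6) were at hand for 34 of the 40 genes. TTTGAA or TTTAAA on either strand was present in 29 of the 34 (85.3%), against 22.9% of 8409 expressed genes and 30.6% of all 27025 genes with such a window. CCAAT on either strand was present in 26 of the 34 (76.5%), against 44.2% of the expressed genes. Both kinds of letters were present in 24 of the 34 (70.6%), against 11.1%, and 18 of the 34 (52.9%) held at least 2 copies of CCAAT, against 17.6%. The promoters of Cenpf, Ccnb1 and Ube2c are printed because these genes were among those that tracked the others most closely in let-7 or miR-294 cells. Those of Plk4 and Cdc25b are printed because Plk4 tracked them least in mock and miR-294 cells, and Cdc25b least in let-7 cells. By Spearman correlation with the rest, Cdc25b stood at 0.40 in miR-294 cells, above Ccnb2 at 0.16 and Birc5 at 0.18. In wild-type cells Cdc25b, at 0.28, was above Ccnb1 at 0.21 and Cenpf at 0.08. These promoters were thus picked by the values of some conditions. Capitals mark the motif letters on either strand, so that TTCAAA stands for the cell cycle homology region and ATTGG for CCAAT on the reverse strand, and copies may overlap.
Cenpf (chr1:189688037-189688336, minus strand): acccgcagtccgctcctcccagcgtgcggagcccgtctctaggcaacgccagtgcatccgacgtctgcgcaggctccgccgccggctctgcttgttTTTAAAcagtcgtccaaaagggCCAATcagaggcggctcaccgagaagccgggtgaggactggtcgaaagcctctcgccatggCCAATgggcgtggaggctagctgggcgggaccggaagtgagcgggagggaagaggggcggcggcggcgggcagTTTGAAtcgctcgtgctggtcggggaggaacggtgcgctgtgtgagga
Ccnb1 (chr13:100786437-100786736, minus strand): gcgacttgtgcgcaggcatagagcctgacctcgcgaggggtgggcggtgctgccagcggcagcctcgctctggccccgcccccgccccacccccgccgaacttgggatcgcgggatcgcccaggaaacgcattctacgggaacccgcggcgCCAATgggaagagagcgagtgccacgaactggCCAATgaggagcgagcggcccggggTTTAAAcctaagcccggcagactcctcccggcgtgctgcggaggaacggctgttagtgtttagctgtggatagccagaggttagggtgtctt
Ube2c (chr2:164769679-164769978, plus strand): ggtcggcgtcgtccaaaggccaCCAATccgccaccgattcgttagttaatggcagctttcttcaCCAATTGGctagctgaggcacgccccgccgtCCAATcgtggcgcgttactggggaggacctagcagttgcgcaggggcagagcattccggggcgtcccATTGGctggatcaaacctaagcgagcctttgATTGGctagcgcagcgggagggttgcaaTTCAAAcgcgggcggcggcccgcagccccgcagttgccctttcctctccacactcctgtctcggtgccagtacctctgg
Plk4 (chr3:40799701-40800000, plus strand): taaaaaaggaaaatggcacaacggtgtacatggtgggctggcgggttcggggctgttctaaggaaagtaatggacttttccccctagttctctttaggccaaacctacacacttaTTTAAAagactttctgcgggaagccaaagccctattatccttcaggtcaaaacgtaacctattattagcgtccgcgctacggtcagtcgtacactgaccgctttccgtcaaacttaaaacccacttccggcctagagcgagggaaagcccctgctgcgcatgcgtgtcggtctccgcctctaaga
Cdc25b (chr2:131186698-131186997, plus strand): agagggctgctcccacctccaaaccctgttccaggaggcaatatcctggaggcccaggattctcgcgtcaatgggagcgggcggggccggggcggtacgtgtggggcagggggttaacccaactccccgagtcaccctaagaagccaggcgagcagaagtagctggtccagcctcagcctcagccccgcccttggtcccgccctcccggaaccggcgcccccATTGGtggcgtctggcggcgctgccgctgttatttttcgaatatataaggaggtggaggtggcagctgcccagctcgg
Those of Cenpf, Ccnb1 and Ube2c held both kinds of letters, that of Plk4 held TTTAAA without CCAAT and that of Cdc25b held CCAAT without the cell cycle homology letters. Other genes did not follow this: Nusap1, which tracked the rest at a Spearman correlation of 0.80 in let-7 cells, had neither kind, Birc5 (0.72 in mock cells) had no CCAAT, and Bub1 (0.67 in let-7 cells) had no cell cycle homology letters.

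Total counts per cell ranged from 513521 to 3979274, with medians of 1307481 in wild-type, 1574732 in mock, 1435139 in miR-294 and 1524918 in let-7 cells, and between 6119 and 10877 genes were counted per cell. Dgcr8 had a pooled level of 155 in wild-type, 52.5 in mock, 59.1 in miR-294 and 48.4 in let-7 cells, in normalised counts per cell. The deleted part of the gene is not given in the sources used here, so these reads do not check the labels. The 8 markers of naive stem cells were counted in every condition, and their summed level per cell had medians of 5432 CPM (counts scaled to the same total in each cell) in wild-type, 5334 in mock, 5607 in miR-294 and 3180 in let-7 cells. The 8 feeder fibroblast markers had a summed median of 0.0 in all conditions, though 1 let-7 cell reached 219 CPM, and those of early differentiation had medians of 0.368 in let-7 and 0.0 in the other cells. Of 50 cells sequenced in 2 runs, 48 had runs that matched, and in 2 cells (1 wild type, 1 let-7) the runs differed by more than 10 times the median chi-square of such pairs. In that let-7 cell the 40 genes took 1.42% of the count in the first run and 0.111% in the other. A further 4 pairs of cells, 3 of let-7 and 1 of miR-294, were as alike by chi-square as the matching runs of a cell. In 1 of the let-7 pairs the Pearson correlation was 0.982, below the lowest of the matching runs at 0.987. Values without the 2 cells whose runs differed, or without 1 cell of each such pair, are given beside some of the ratios and correlations below. The mitotic share, the genes counted and the variation over cells are given with all cells kept.

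The conditions differed in how evenly their cells carried mitotic reads. The summed share of the 40 genes in a cell's count (the mitotic share) in the 16 wild-type cells ran from 0.373% to 1.12%, with a median of 0.881% (SD over cells 0.22). In the 60 mock cells it ran from 0.0341% to 1.47%, with a median of 0.424% (SD 0.32). In the 58 miR-294 cells it ran from 0.0676% to 1.42%, with a median of 0.568% (SD 0.293). In the 48 let-7 cells it ran from 0.0293% to 1.55%, with a median of 0.308% (SD 0.408). The wild-type cells were thus the most even and the let-7 cells the most spread, with both the lowest and the highest cell of the study, and the ranges of all 4 conditions overlapped. A share below that of the lowest wild-type cell was found in 25 of 60 mock, 10 of 58 miR-294 and 26 of 48 let-7 cells. The upper quartile was 1.54 times the lower quartile in wild-type, 2.75 times in mock, 2.05 times in miR-294 and 5.37 times in let-7 cells.

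**Figure D1:**
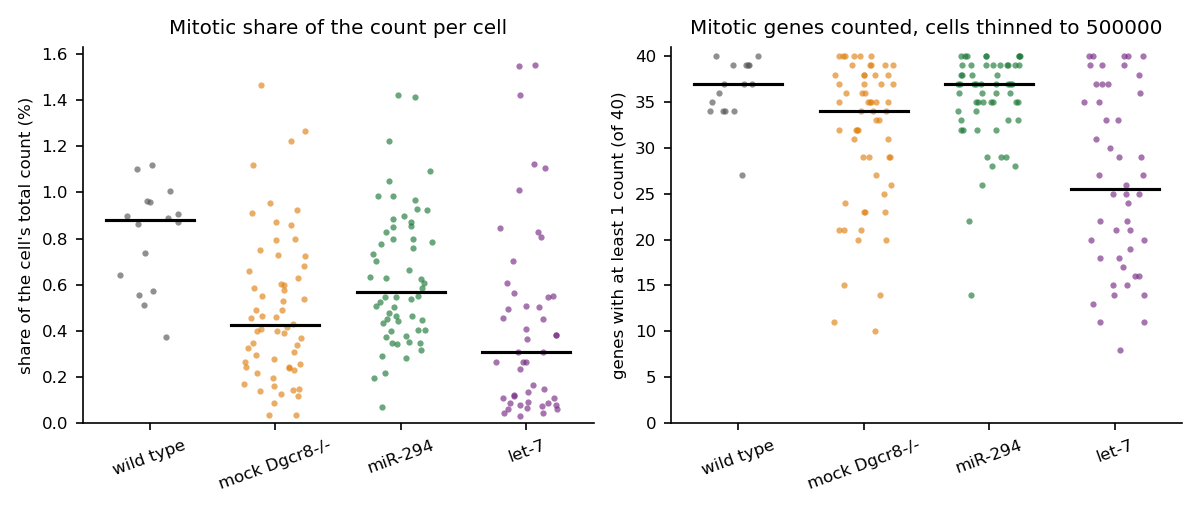
Each point is 1 cell and each black line the median of its condition. Left, the share of a cell's total count in the 40 genes, in percent, with medians of 0.881 in wild-type, 0.424 in mock, 0.568 in miR-294 and 0.308 in let-7 cells. Right, how many of the 40 genes had at least 1 count after each cell was thinned to 500000 counts, with medians of 37, 34, 37 and 25.5 in the same order. The let-7 cells spread from the bottom to the top of both plots.

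The number of mitotic genes counted in a cell was likewise lowest in let-7 and next lowest in mock cells. After thinning every cell to 500000 counts, wild-type cells had counts for a median of 37 of the 40 genes (27 to 40), mock cells 34 (10 to 40), miR-294 cells 37 (14 to 40) and let-7 cells 25.5 (8 to 40). Without thinning the medians were 38, 35, 37 and 28. The median gene of the list was counted in 93.8% of wild-type, 83.3% of mock, 93.1% of miR-294 and 66.7% of let-7 cells, whereas the median over all expressed genes was 56.2%, 61.7%, 63.8% and 60.4%. The let-7 cells were thus the lowest for the list and lay between the other conditions for all genes. The order of the mitotic share, from let-7 over mock and miR-294 to wild type, was the same for the mean of log2(normalised count + 1) over the 40 genes, at medians of 4.12, 5.40, 6.22 and 6.67.

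Several genes were counted in fewer let-7 than mock cells. Ccnf, cyclin F, was counted in 20 of 48 let-7 cells (41.7%, exact binomial 95% interval 27.6 to 56.8) against 51 of 60 mock cells (85%, 73.4 to 92.9). Aurkb, the kinase of the chromosomal passenger complex, was counted in 16 of 48 let-7 cells (33.3%, 20.4 to 48.4) against 34 of 60 mock cells (56.7%, 43.2 to 69.4). Birc5, the passenger subunit survivin, was counted in 25 of 48 let-7 cells (52.1%, 37.2 to 66.7) against 52 of 60 mock cells (86.7%, 75.4 to 94.1). These binomial intervals treat the cells of a condition as independent and leave out the spread between chips. The intervals of the ratios given below cover counting error only, and the reads carry no molecular identifiers. In contrast, miR-294 cells had Birc5 in 58 of 58 cells, Cdk1 in 58 of 58 and Tpx2 in 58 of 58, where mock cells had Cdk1 in 55 of 60 and Tpx2 in 55 of 60. Racgap1, a subunit of the centralspindlin complex of cytokinesis, was counted in 100% of wild-type, mock and miR-294 cells and in 97.9% of let-7 cells. Cdc25b, a phosphatase that activates Cdk1, was counted in few cells of any condition, in 25% of wild-type, 33.3% of mock, 31% of miR-294 and 41.7% of let-7 cells.

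**Figure D2:**
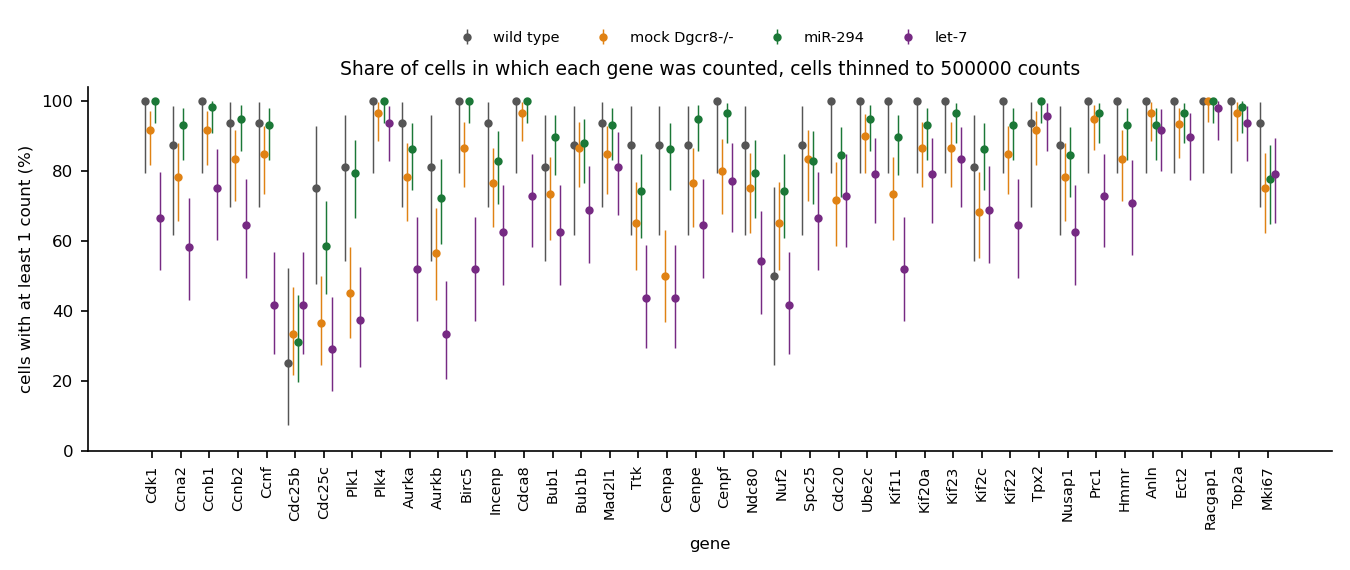
Share of cells, in percent, in which each of the 40 genes had at least 1 count after thinning to 500000 counts. Points are conditions and lines are exact binomial 95% intervals, which treat the cells of 1 chip as independent. For most genes the let-7 point is the lowest, as for Birc5 at 52.1%, 86.7% in mock and 100% in miR-294 cells.

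Per transcript length, the genes of a role differed widely in level. On the authors' FPKM scale, as means over the mock cells, Cdk1 stood at 234 and Cdc25b at 13 among the genes of mitotic entry, and Birc5 at 119 and Incenp at 16.9 within the passenger complex. Among spindle checkpoint genes Mad2l1, which inhibits the anaphase activator Cdc20, stood at 84.3 and the checkpoint kinase Ttk at 22.2. Of the kinases Aurka stood at 61.9 and Plk4 at 13, of the anaphase ubiquitination genes Ube2c at 155 and Cdc20 at 55.3, and of the chromosome genes Top2a at 137 and Mki67 at 13.5. At the kinetochore, Spc25 of the microtubule-binding Ndc80 complex stood at 50.6 and the motor Cenpe at 15.0. The microtubule bundler Prc1 stood at 86.7 and Nusap1 at 22.5, and of the cytokinesis genes the RhoA activator Ect2 stood at 60.7 and Anln at 29.8. Of these genes, Spc25, Prc1 and Cdc25b had a lower mean FPKM in wild-type than in mock cells, and the others a higher one.

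In mock Dgcr8-/- cells, most of the 40 genes had a lower level than in wild-type cells. In this comparison levels are pooled, as the summed count of a condition divided by its summed size factors, and ratios carry an exact interval of 2 Poisson counts. In mock against wild-type cells, 31 of the 40 genes were lower and 9 higher, with a median log2 ratio of -0.51, while the median over the 11162 genes compared was 0.36. Of all genes compared, 62.65% were higher. After centring on the median of all genes, 1 was 2-fold higher and 18 were lower, against 25.3% and 17% of all genes. Uncentred, at least 2-fold lower were 9 of the 40 genes, against 9.86% of all genes compared, and 1 was at least 2-fold higher, against 32.2%. Without the cells whose runs differed, 10 were lower, against 10.1%. By the median cell, 32 of the 40 genes were lower in mock cells and 7 higher, against 32.6% lower and 38.5% higher over all expressed genes. The 16 wild-type cells are few and come from 1 chip.

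Cyclin B1 showed the difference most plainly among the abundant genes. Ccnb1, the main cyclin partner of Cdk1 at mitotic entry, ran from 135 to 2592 normalised counts in wild-type cells with a median of 1006, and from 0.0 to 3611 in mock cells with a median of 333. Its pooled log2 ratio was -1.21 (95% interval -1.24 to -1.19), and a mock cell had the higher count in 20.6% of pairs of 1 mock and 1 wild-type cell. Plk4, the kinase that starts centriole duplication, ran from 10.9 to 369 with a median of 147 in wild-type cells and from 1.25 to 298 with a median of 24.2 in mock cells, for a log2 ratio of -1.66 (-1.73 to -1.59). Both genes were low in most mock cells, yet the cell ranges overlapped, as they did for all 40 genes in all 3 comparisons.

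Of the other genes at least 2-fold lower in mock cells, Cenpa, the histone H3 variant that marks centromeres, had a log2 ratio of -1.59 (-1.69 to -1.49) and a median cell of 1.54 normalised counts against 51. Cenpf, a large kinetochore protein of G2 and mitosis, stood at -1.16 (-1.2 to -1.12), with median cells of 79.9 and 392. Ccna2, cyclin A2, stood at -1.35 (-1.41 to -1.29), with median cells of 51.5 and 126. These 3 were low in most mock cells too. Kif2c, a microtubule depolymerase of the centromere, stood at -1.09 (-1.14 to -1.04), Cdc25c, a phosphatase of Cdk1, at -1.05 (-1.12 to -0.97), Aurkb at -1.05 (-1.12 to -0.98) and Racgap1 at -1.03 (-1.08 to -0.98). With every cell given the same weight, Ccna2, Aurkb, Kif2c and Racgap1 fell short of 2-fold. The wild-type cell whose runs differed also decided 2 of these calls: without it Kif2c stood at -0.23 and Racgap1 at -0.89. Cdc25b alone went the other way, at 3.25 (2.96 to 3.55), but it rested on few cells, with 101 summed counts in wild-type cells and a median cell of 0.0 in both conditions. Top2a, the topoisomerase that untangles chromosomes, had a wild-type median of 1110 and a mock median of 461, at a log2 ratio of -0.96 (-0.98 to -0.94).

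**Figure D3:**
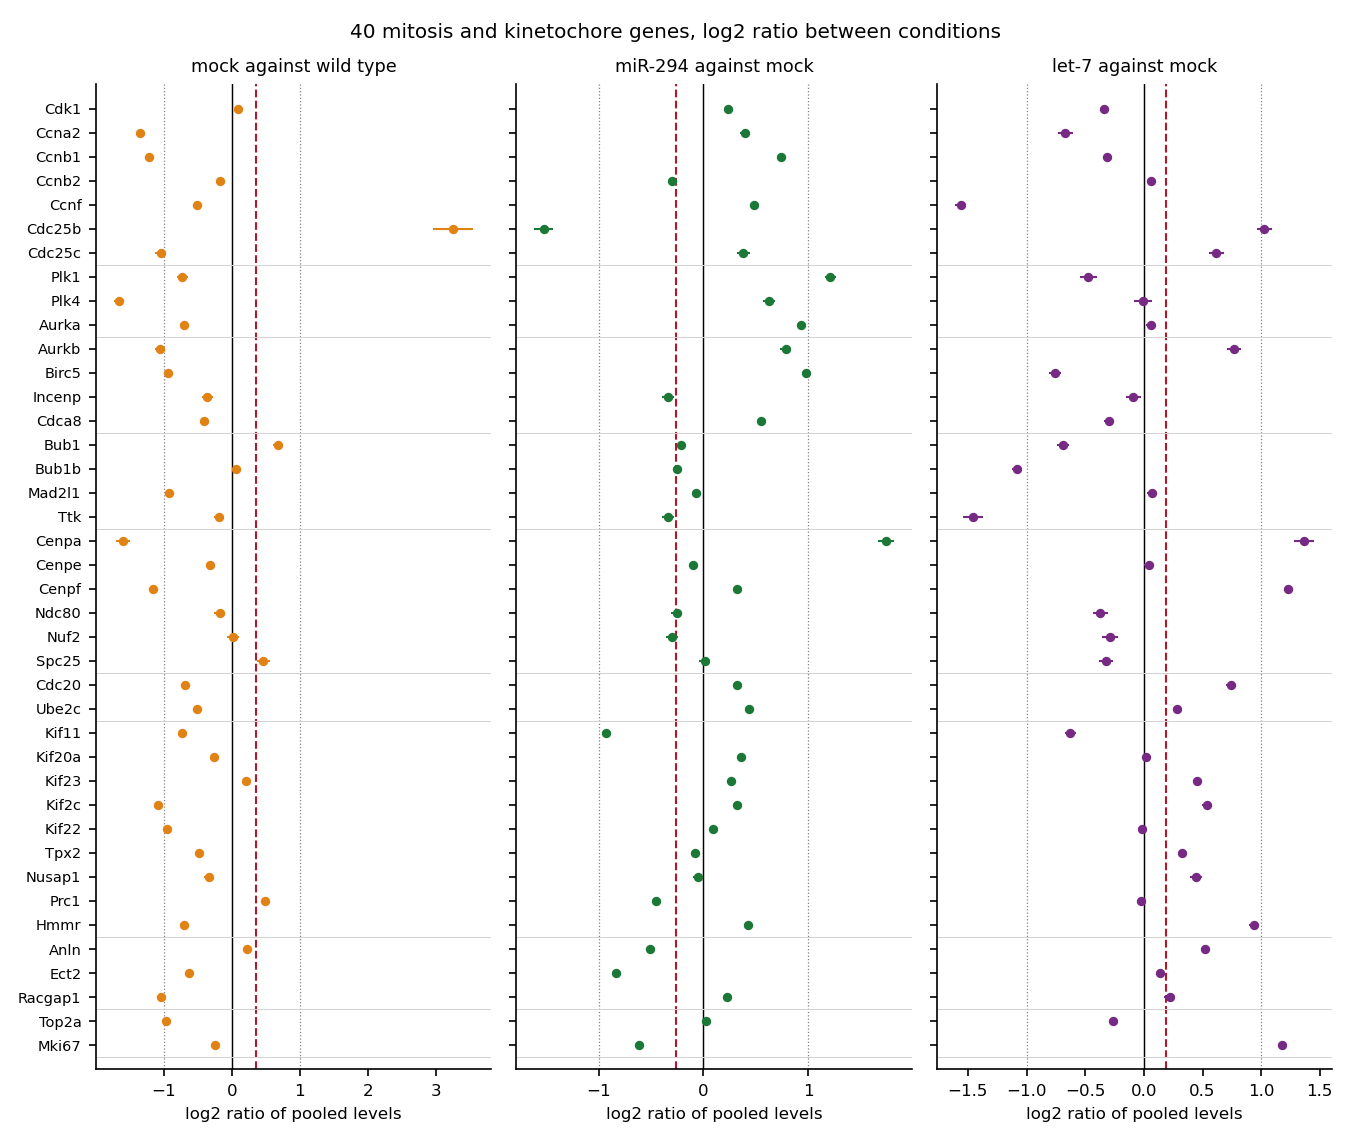
Log2 ratio of the pooled normalised level of each of the 40 genes in 3 comparisons, with exact 95% intervals that cover counting error only. Grey lines separate the roles, dotted lines mark 2-fold and the red dashed line is the median of all genes compared (0.36, -0.26 and 0.19 from left to right). In mock against wild type 31 genes lie below 0, where 62.65% of all genes compared lie above 0. In the other panels the 40 genes are spread to both sides.

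In cells given the miR-294 mimic, mitotic genes were counted at a higher level in the typical cell than in mock cells. By the median cell, 33 of the 40 genes were higher and 6 lower, against 36.4% higher and 34.6% lower over all expressed genes. By pooled level 23 were higher and 17 lower, with a median log2 ratio of 0.16 beside -0.26 over the 11180 genes compared. Of all genes compared, 35.8% were higher. At least 2-fold higher were 2 of the 40 genes, Cenpa and Plk1, against 6.25% of all genes, and 1 was at least 2-fold lower, Cdc25b, against 19.7%. After centring on the median of all genes, 6 were higher and 1 lower by 2-fold, against 9.25% and 14.1% of all genes. The pooled median was -0.00175 when each cell had the same weight, and 0.80 when median cells were compared. The miR-294 and let-7 comparisons share the mock cells and are each given on their own.

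The 5 largest ratios were those of Cenpa, Cdc25b, Plk1, Birc5 and Aurka. Cenpa ran from 0.0 to 365 normalised counts with a median of 72 in miR-294 cells and from 0.0 to 216 with a median of 1.54 in mock cells, at a log2 ratio of 1.74 (1.67 to 1.82), and it was counted in 50 of 58 against 30 of 60 cells. Plk1, the polo-like kinase of centrosome maturation and mitotic exit, ran from 0.0 to 1017 with a median of 51.3 against 0.0 to 689 with a median of 0.0, at 1.22 (1.17 to 1.27), and it was counted in 46 of 58 against 27 of 60 cells. In both genes the mock cells were mostly at or near 0.0 with a tail of high cells. Birc5 stood at 0.98 (0.95 to 1.01), with medians of 251 and 103, and Aurka, the kinase of centrosomes and spindle poles, at 0.93 (0.90 to 0.96), with medians of 201 and 55.9. Ccnb1 stood at 0.74 and Aurkb at 0.79 on the same log2 scale. The 4 spindle checkpoint genes lay between -0.33 for Ttk and -0.07 for Mad2l1, with a median of -0.23 close to the -0.26 of all genes, although the median cell of Bub1, Mad2l1 and Ttk was higher in miR-294 than in mock cells. The motor Kif11, which pushes spindle poles apart, had a log2 ratio of -0.93 (-0.97 to -0.89) with medians of 69.7 and 64.2, and its highest mock cell held 1599 normalised counts and its highest miR-294 cell 442.

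The genes with miR-294 letters in their 3′ UTR lay to both sides of 0. Cdc25b, Plk4 and Ect2 are on the bulk target list by which the study left out miR-294 cells. Their levels are therefore not independent of how cells were kept. Cdc25b, whose site is printed above, had a pooled level of 18 in miR-294 cells and 51.8 in mock cells, at a log2 ratio of -1.52 (-1.61 to -1.44). It was counted in 18 of 58 and 20 of 60 cells, with a median of 0.0 in both, and the highest cells stood at 423 and 863. The ratio was -0.99 on the first run of each cell alone. Ect2 was lower in miR-294 cells, at -0.83 (-0.87 to -0.79), with medians of 91.6 and 132, and a miR-294 cell had the higher count in 39.5% of cell pairs. Plk4 was higher, at 0.63 (0.57 to 0.69), with a median of 42.1 and a range of 7.11 to 291 in miR-294 cells. Mad2l1 stood at -0.07 (-0.10 to -0.03), with medians of 140 and 97.7.

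With the let-7 mimic the typical cell had fewer mitotic reads, while the pooled level of the condition was close to that of mock cells. By the median cell, 29 of the 40 genes were lower in let-7 than in mock cells and 8 were higher, against 33.9% lower and 37.5% higher over all expressed genes. By pooled level 19 were lower and 21 higher, with a median log2 ratio of 0.03 beside 0.19 over the 11185 genes compared, and the median was -0.02 without the 2 cells whose runs differed. Of all genes compared, 60.2% were higher. At least 2-fold higher were 4 of the 40 genes, against 18.8% of all genes compared, and 3 were at least 2-fold lower, against 9.28%. After centring, 2 were higher and 3 lower by 2-fold, against 15.1% and 11.9% of all genes. The number higher was 3 without the cells whose runs differed (19.1% of all genes) and 5 without 1 cell of each near-identical pair (18.5%). The 12 let-7 cells with the highest sums held 60.2% of the normalised counts of the 40 genes in that condition, where the 15 highest of 60 mock cells held 48.1%, the 15 highest of 58 miR-294 cells 41.4% and the 4 highest of 16 wild-type cells 33.1%. Over all expressed genes the medians of the same measure for single genes were 85.3%, 84.1%, 82.7% and 83.3%, and over the 40 genes 80.6% in let-7, 70.5% in mock and 61.3% in miR-294 cells. The let-7 cells also had a lower naive marker sum, given above, and its part in this difference was not tested.

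**Figure D4:**
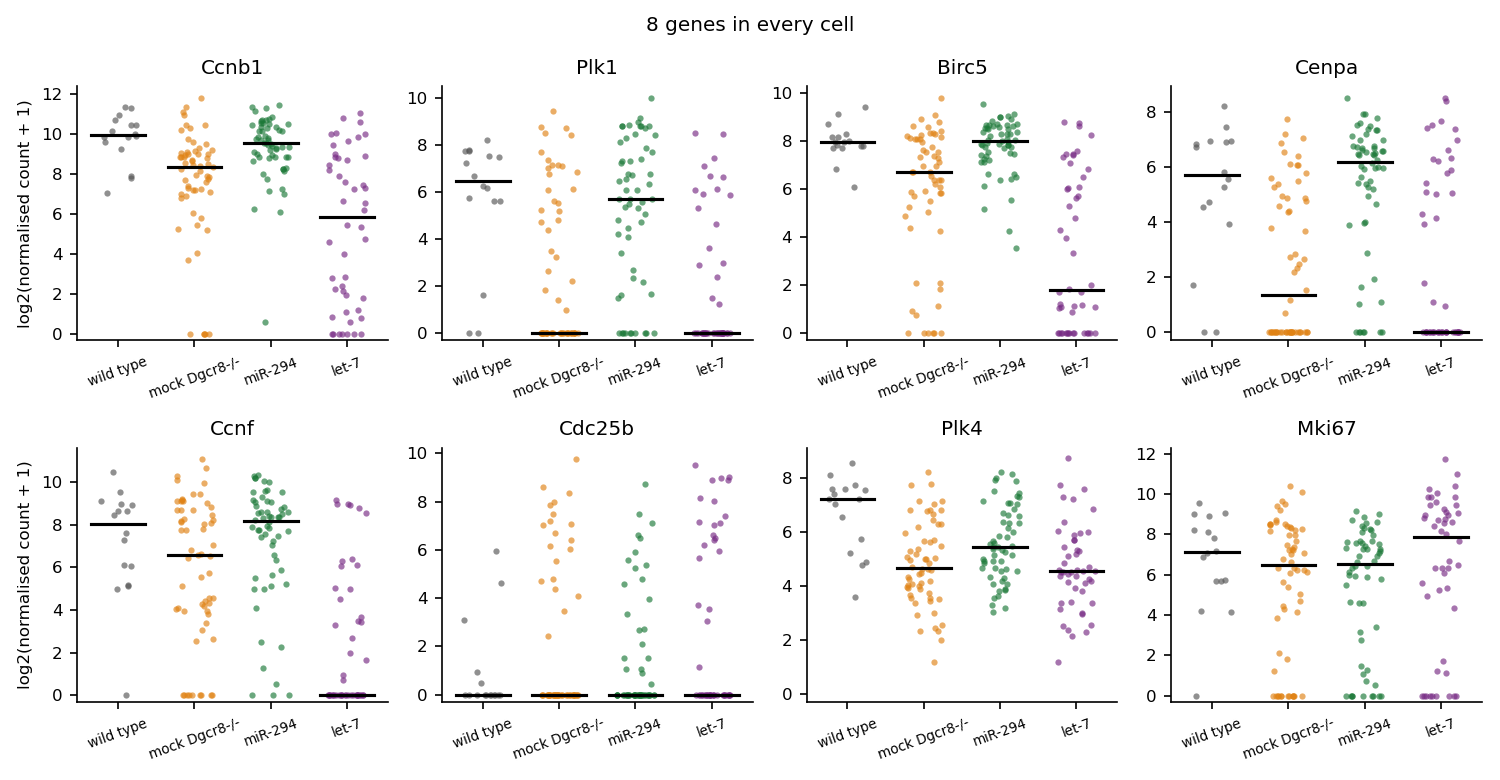
Each point is 1 cell, on the scale of log2(normalised count + 1), and black lines are medians. For Ccnb1 and Birc5 the let-7 cells stretch from 0 to the level of the wild-type cells, with medians of 58.3 and 2.42 normalised counts, while the miR-294 cells gather at the top with medians of 744 and 251. The median of every condition is 0 for Cdc25b.

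Ccnf was the gene lowest in let-7 against mock cells. Its let-7 letters are those followed by an A. The study left out let-7 cells by the bulk target list that holds Ccnf. It also names Ccnf a high-confidence let-7c target, a set that had to be lower in these let-7 cells than in Dgcr8-/- cells. The low level of Ccnf is therefore not independent of how cells were kept, and gives no separate support for the site. Ccnf ran from 0.0 to 578 normalised counts in let-7 cells with a median of 0.0, and from 0.0 to 2135 in mock cells with a median of 96, at a pooled log2 ratio of -1.56 (-1.61 to -1.51). A let-7 cell had the higher count in 23.4% of cell pairs. The pooled ratio ran from -2.05 to -1.48 over the 12 alternatives that gave a value. In miR-294 cells its median was 288 and in wild-type cells 268. Among the other genes with let-7 letters, Birc5 stood at -0.76 (-0.81 to -0.71), with medians of 2.42 and 103, Kif11 at -0.63 (-0.67 to -0.58), with medians of 9.12 and 64.2, and Nusap1 at 0.44 (0.39 to 0.49), with medians of 27.7 and 23.9.

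Ttk and Bub1b, 2 of the 4 spindle checkpoint genes, were the other genes at least 2-fold lower with let-7. Of the remaining checkpoint genes, Bub1 stood at -0.69 and Mad2l1 at 0.07. Ttk ran from 0.0 to 355 with a median of 0.266 in let-7 cells and from 0.0 to 509 with a median of 9.51 in mock cells, at -1.46 (-1.54 to -1.37). Bub1b ran from 0.0 to 571 with a median of 27.0 against 0.0 to 920 with a median of 132, at -1.08 (-1.13 to -1.04), and it was -0.86 with every cell weighted alike, -0.85 after thinning and -0.73 on first runs. Both had fewer let-7 than mock cells with a count, at 21 of 48 against 39 of 60 and 33 of 48 against 52 of 60.

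Among the genes at least 2-fold higher with let-7, Mki67, the proliferation marker Ki-67 that coats mitotic chromosomes, was higher in the typical cell as well. It ran from 0.0 to 3357 with a median of 232 in let-7 cells and from 0.0 to 1334 with a median of 89.4 in mock cells, at 1.18 (1.14 to 1.21), or 0.99 after centring. Cenpf had a log2 ratio of 1.23 (1.2 to 1.26) by pooled level, but its median cell was lower in let-7 than in mock cells, 34.1 against 79.9, which turned the ratio of medians to -1.23. It was 0.84 by the mean over cells and 0.89 after thinning. Its highest let-7 cell held 2308 normalised counts and its highest mock cell 617. Cenpa stood at 1.37 (1.28 to 1.45), with medians of 0.0 and 1.54, but at 0.92 by the mean over cells and 0.96 on first runs, and Cdc25b stood at 1.03 (0.97 to 1.09), with medians of 0.0 in both. Cdc25b fell below 2-fold under 7 of 12 alternatives, among them CPM at 0.95 and the set without the 2 cells whose runs differed at 0.87. Hmmr, a spindle-associated receptor for hyaluronan, stood at 0.94 (0.90 to 0.97) although its medians were 9.07 and 49.6. Tpx2, the activator of Aurora A, Anln, a scaffold of the contractile ring, and Cdc20 were higher by both measures, with medians of 300 against 179, 243 against 157 and 150 against 33.3.

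Most related genes outside the 40 were within 2-fold by pooled level. Over all genes compared, 6.25% were at least 2-fold higher and 19.7% lower in miR-294 against mock cells. The shares were 18.8% and 9.28% in let-7 against mock cells, and 32.2% and 9.86% in mock against wild-type cells. Of 37 other kinetochore and centromere genes, 1 was at least 2-fold higher and 3 lower in miR-294 against mock cells, 1 higher and 3 lower in let-7 against mock cells, and 4 higher and 4 lower in mock against wild-type cells. Of 30 other spindle and cytokinesis genes the counts were 2 and 2, then 2 and 2, then 2 and 6. Of 19 genes of the anaphase-promoting complex and chromatid separation they were 0 and 0, then 2 and 0, then 2 and 2, and of 17 condensin and cohesin genes 1 and 1, then 0 and 0, then 1 and 0. Of 19 other genes of mitotic entry and late cell cycle transcription they were 2 and 1, then 3 and 1, then 3 and 2. The 30 genes of G1/S and S phase were 2 higher and 0 lower with miR-294, and 1 higher and 5 lower with let-7, with median log2 ratios of -0.03 and -0.55, and 1 higher and 4 lower in mock against wild-type cells, with a median of -0.12. With let-7, 5 of the 30 were above 0, against 60.2% of all genes compared.

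The spread of single genes over cells was wide. The coefficient of variation (SD over mean of the normalised counts) of the 40 genes had a median of 1.05 in wild-type, 1.31 in mock, 0.999 in miR-294 and 1.53 in let-7 cells. Expressed genes of the same level, within 1.5 times the mean of each member, had medians of 0.875, 1.10, 0.852 and 1.24, and 27, 32, 30 and 32 of the 40 genes in that order were above the median of their level. For Ccnb1 the value was 1.58 in let-7 cells, 1.31 in mock cells, 0.727 in miR-294 cells and 0.645 in wild-type cells.

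The 40 genes varied together, most in let-7 cells. Over the 780 pairs of genes, the median Spearman correlation over cells was 0.442 in the 48 let-7 cells, 0.336 in the 60 mock cells, 0.211 in the 58 miR-294 cells and 0.0941 in the 16 wild-type cells. Over all pairs of expressed genes it was 0.0167, 0.0160, 0.0155 and 0.00267. A correlation of at least 0.5 was found for 283 pairs in let-7, 86 in mock and 39 in miR-294 cells, and for 44 in the 16 wild-type cells. Over all pairs of expressed genes, such a correlation was found for 0.105% in let-7, 0.0381% in mock, 0.0269% in miR-294 and 2.83% in wild-type cells. All cells of a condition come from 1 chip and depth varies between them, so these values describe the cells and carry no p. With 16 cells of each condition nearest in depth to the wild-type cells, the medians were 0.448 in let-7, 0.412 in mock and 0.200 in miR-294 cells, and without 1 cell of each near-identical pair they were 0.448 in let-7 and 0.211 in miR-294 cells.

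In the 3 Dgcr8-/- conditions the mitotic genes had lower correlations with replication genes than with each other. Pairs of 1 of the 40 genes and 1 of 30 genes of G1/S and S phase had medians of 0.152 in let-7, 0.0357 in mock and -0.00849 in miR-294 cells, and pairs of 2 G1/S and S genes had medians of 0.234, 0.145 and 0.0672. In wild-type cells the values were 0.0118 and 0.156, the latter above the 0.0941 of the mitotic pairs. Pairs within a role and pairs across roles were alike, at 0.447 and 0.442 in let-7, 0.356 and 0.330 in mock and 0.211 and 0.212 in miR-294 cells. The mitotic share had a correlation of 0.397 with the number of genes counted per cell in let-7 cells, 0.393 in miR-294 and 0.225 in mock cells, and of 0.0735, -0.142 and -0.0336 with the total count. In wild-type cells it was 0.200 with the genes counted and 0.391 with the total count.

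**Figure D5:**
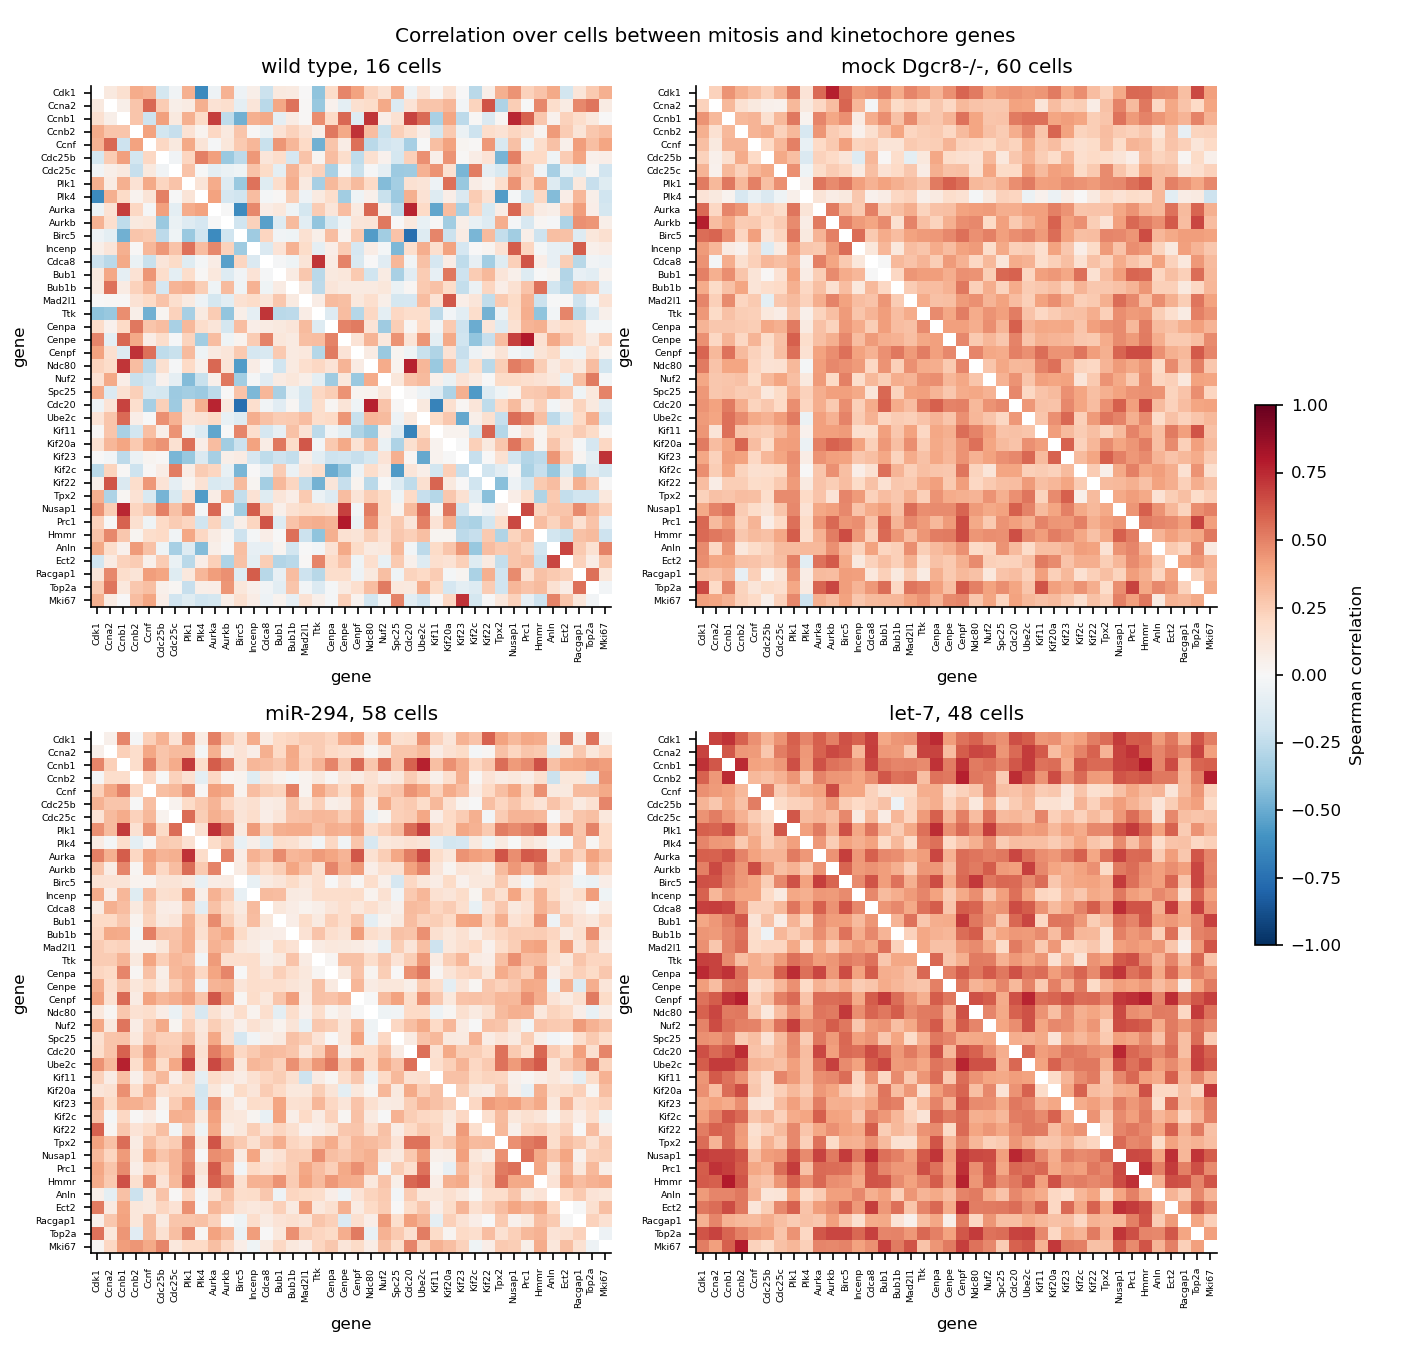
Spearman correlation over cells for each pair of the 40 genes, in 4 panels, 1 per condition, with genes in the order of their roles and the colour scale from -1 to 1. The let-7 panel is the reddest, with a median of 0.442, followed by mock at 0.336 and miR-294 at 0.211, while the 16 wild-type cells give a scattered panel. The pale lines of Plk4 cross the mock and miR-294 panels.

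Some genes led in more than 1 condition. Cenpf had the highest correlation with the share of the other 39 genes in let-7 cells, at 0.88, followed by Ccnb1 and Ccnb2 at 0.81. In miR-294 cells Ccnb1 led at 0.81, followed by Plk1 and Ube2c at 0.79, and in mock cells Cenpf and Plk1 led at 0.74, followed by Birc5 at 0.72. In the 16 wild-type cells Nusap1 led at 0.75, followed by Prc1 at 0.58. Ccnb2 stood at 0.81 in let-7 but at 0.16 in miR-294 cells, and Birc5 at 0.69 in let-7 but at 0.18 in miR-294 cells, where it was counted in every cell. Plk4 tracked the rest least in mock and miR-294 cells, at 0.07 and 0.12, and Cdc25b least in let-7 cells, at 0.36.

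The 5 closest pairs in mock cells were Cdk1 with Aurkb at 0.78, Prc1 with Top2a at 0.68, Aurkb with Top2a at 0.67, Cdk1 with Top2a at 0.66 and Birc5 with Hmmr at 0.65. In miR-294 cells they were Ccnb1 with Ube2c at 0.77, Plk1 with Aurka at 0.72, Ccnb1 with Plk1 at 0.70, Plk1 with Ube2c at 0.69 and Aurka with Ube2c at 0.66. These last genes belong to late G2 and mitosis, and Ube2c is the E2 enzyme of the anaphase-promoting complex. In let-7 cells they were Ccnb1 with Hmmr at 0.79, Ccnb2 with Mki67 at 0.79, Ccnb2 with Cenpf at 0.78, Cenpf with Hmmr at 0.77 and Cenpf with Ube2c at 0.76. In the 16 wild-type cells they were Cenpe with Prc1 at 0.80, Ndc80 with Cdc20 at 0.77, Aurka with Cdc20 at 0.76, Ccnb1 with Nusap1 at 0.75 and Kif23 with Mki67 at 0.73.

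Outside the list, the 5 genes most like the mitotic share in mock cells were Cks2, a small subunit of Cdk1 complexes, at 0.73, Hmgb2 at 0.71, Calm2 at 0.65, the mitotic kinase gene Pbk at 0.63 and Gm10184 at 0.61 (Spearman, 60 cells). In miR-294 cells they were Cks2 at 0.72, the alpha-tubulin gene Tuba1c at 0.70, Espl1, which encodes separase, at 0.66, Arl6ip1 at 0.65 and Arhgef39 at 0.65 (58 cells). In let-7 cells they were Hmgb2 at 0.82, the chromokinesin gene Kif4 at 0.80, Ckap2l at 0.76, Shcbp1 at 0.73 and the kinetochore gene Ska1 at 0.73 (48 cells).

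Some of the 40 genes share stretches of sequence with other annotated transcripts, between which the authors' counting divides reads by estimate. Of the 31-base stretches in the transcripts of Ccnb1, 27.7% also occur in other genes, the most in Ccnb1-ps at 22.9%. For Cdc20 the figure was 25.5%, the most in Gm7856, and for Plk1 14.8%, all in Plk-ps1. The values of these 3 genes are therefore less certain than those of the others, in which under 10% was shared.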

How the data were processed

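Single cells were captured on C1 chips, 1 chip per condition, and 182 cells in 232 sequencing runs were used. The authors assigned reads to Gencode M4 genes with RSEM 1.2.19 and deposited expected counts and FPKM per run, after they had removed cells by depth, diversity and evidence of the mimic. The methods name RSEM with its standard settings for alignment and assignment, and a figure legend names TopHat for alignment. Runs of a cell were summed and expected counts rounded to whole numbers. Size factors were medians of ratios over 862 genes counted in every cell. Only genes averaging 5 counts or more per cell entered the comparisons (11186 of 42493). A level is the summed count over the summed size factors. Ratios have exact conditional 95% intervals of 2 Poisson counts, which cover counting error only. Shares have exact Clopper-Pearson intervals, which treat the cells of a condition as independent. Neither kind covers the spread between chips. With 1 chip per condition there is no test and no p-value, and 2-fold is a rule of size. Detection was read in cells thinned to 500000 counts. The deposited FPKM of the authors was used to compare levels between genes. Genes were named by a fixed rule: all past 2-fold and the 5 largest ratios per comparison, Plk4 and Ccnf, the highest and lowest FPKM of each role, the 5 closest pairs per condition, and the 5 other genes most like the mitotic share in each Dgcr8-/- condition. The remaining genes named were chosen after their values were seen. The members and lists were chosen with earlier results of these data known. Alternatives included CPM, TMM factors (edgeR 4.0.16, R 4.3.3), centring on all genes, mean and median over cells, first runs, thinning and leaving out cells. Computations used Python 3.11.15, numpy 2.4.6, pandas 2.3.3 and scipy 1.17.1, figures matplotlib 3.10.9, and the scripts were tested on simulated data.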

Additional observations from a re-analysis of the deposited data

How the results depend on the processing

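No paired analysis was possible because the numbers in the labels name cells and sequencing runs, and no test was made. In miR-294 against mock cells, the number of genes at least 2-fold higher (2) was 4 with CPM (8.43% of all genes), 4 with TMM factors (7.45%), 6 after centring on the median of all genes (9.25%), 16 by the median over cells (20.5%) and 7 at a fold of 1.5 (12.1%). The number at least 2-fold lower (1) was 0 by the median over cells (19.1%), 0 on first runs (19.4%) and 4 at a fold of 1.5 (34%). The median log2 ratio (0.16) was 0.35 with CPM, 0.28 with TMM factors, 0.42 centred, 0.80 by the median over cells and 0.22 on first runs, and it turned to -0.00175 by the mean over cells and -0.0213 after thinning. In let-7 against mock cells, the number higher (4) was 2 centred (15.1%), 1 by the mean over cells (18.9%), 2 by the median over cells (23.8%), 2 after thinning (13.4%) and 8 at a fold of 1.5 (31.8%), and the number lower (3) was 22 by the median over cells (21.8%) and 7 at a fold of 1.5 (16.8%). The let-7 median (0.03) turned to -0.0522 with CPM, -0.0760 with TMM factors, -0.16 centred, -0.19 by the mean over cells, -1.23 by the median over cells, -0.0934 on first runs, -0.13 after thinning and -0.0177 without the 2 cells whose runs differed, an alternative chosen after seeing the data. Cenpf in let-7 cells turned to -1.23 by the median over cells. In mock against wild-type cells, the number lower (9) was 18 centred (17%), 5 by the mean over cells (9.34%), 23 by the median over cells (21.3%), 5 after thinning (7.10%) and 19 at a fold of 1.5 (18.6%), where the number higher (1) was 2 (42.9%). Its median (-0.51) was -0.68 with CPM, -0.66 with TMM factors, -0.87 centred, -1.18 by the median over cells and -0.45 after thinning. The median share of cells in which a gene was counted was 100% in wild-type cells without thinning, and at 10 or more counts 61.7% in mock, 79.3% in miR-294 and 49% in let-7 cells. The wild-type mitotic share was 0.650% without the 3 most abundant genes. The cause of these shifts was not tested. Over the alternatives run, the median correlation ran from 0.432 to 0.469 in let-7, 0.336 to 0.412 in mock, 0.191 to 0.256 in miR-294 and 0.0912 to 0.115 in wild-type cells. Genes past 2-fold under every alternative that gave a value were Cenpa and Plk1 with miR-294, Ccnf and Ttk with let-7, and Ccnb1, Plk4, Cenpa, Cenpf, Cdc25b and Cdc25c in mock against wild-type cells. Of these, Cdc25b rested on few cells under every alternative, and a mock cell was the higher in 55% of pairs with a wild-type cell. With 1 chip per condition, the spread between chips is not measured and the intervals leave it out.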
